A study of Mus musculus with 6 samples.

Results

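The guanylate-binding proteins are a family of large GTPases, and in the mouse their genes stand in a cluster on chromosome 3 and another on chromosome 5. The 9 genes described here, Gbp2, Gbp2b, Gbp3, Gbp4, Gbp5, Gbp6, Gbp7, Gbp8 and Gbp9, were chosen by symbol, after matching the Ensembl gene identifiers of the count table to Gencode M21. They are 9 of 54446 genes in the table, and each reached 10 counts in some library. RNA was sequenced from bone marrow-derived macrophages (BMDMs) of male BALB/c mice aged 6 to 8 weeks. Marrow cells were cultured for 7 days in medium with 20% L929-conditioned medium, a source of the macrophage growth factor CSF-1. They were then left without a polarizing agent (M0) or kept for 24 h with IFN-γ at 20 ng/mL plus bacterial LPS at 50 ng/mL (M1) or with IL4 at 20 ng/mL (M2). Each state was sequenced with the DMSO vehicle (control) and with regorafenib (1 µM), a small-molecule inhibitor of several kinases, which was added 1 h before the polarizing agents. There was 1 library per condition and 6 libraries in all. Whether M0 cells were kept in culture over the same hours is not given in the sources used here, nor is the number of mice behind a library.

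Guanylate-binding proteins are classical targets of interferons. IFN-γ acts through its receptor and the kinases Jak1 and Jak2 on genes with gamma-activated (GAS) sites and induces Irf1, which binds interferon-stimulated response elements (ISRE). The proteins assemble on the vacuoles of intracellular microbes and on bacterial LPS, together with the immunity-related GTPases, and promote signalling through caspase-11 and inflammasomes. Gbp2, Gbp2b and Gbp5 end in a CaaX box, a signal for a lipid anchor that holds the protein to membranes.

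The promoters are shown first, because the interferon motif that the family is known for can be read in them. RefSeq windows on GRCm38.p6, from 250 bases before to 50 bases after the start site, were on hand for 5 of the 9 genes, all on the plus strand of chromosome 3, with 6 windows since Gbp3 has 2 starts. The ISRE was searched on both strands as GAAANNGAAA, and it was found in 5 of the 6 windows and so for each of the 5 genes, against 3.44% of all 32851 windows of that length. In each of the 5 it lay on the minus strand. The stretches below are printed 5′ to 3′ on the plus strand, with the ISRE in capitals as its reverse complement. They lie at chr3:142496744-142496803 (Gbp5), chr3:142530258-142530317 (Gbp7), chr3:142559974-142560039 (Gbp3), chr3:142594685-142594744 (Gbp2b) and chr3:142620579-142620638 (Gbp2).
Gbp5: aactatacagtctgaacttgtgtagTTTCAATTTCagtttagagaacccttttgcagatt
Gbp7: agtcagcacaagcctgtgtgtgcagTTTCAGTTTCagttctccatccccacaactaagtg
Gbp3: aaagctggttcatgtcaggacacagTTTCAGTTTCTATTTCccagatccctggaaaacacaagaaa
Gbp2b: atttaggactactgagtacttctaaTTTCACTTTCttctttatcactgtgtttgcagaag
Gbp2: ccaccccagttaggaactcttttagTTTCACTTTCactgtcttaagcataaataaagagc

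Gbp3 had 2 ISRE matches that overlap each other and the other genes had 1 each. The match began 165 bases before the start in Gbp5, 137 bases before it in Gbp2b, and 59, 53 and 45 bases before it in Gbp2, Gbp7 and the outer match of Gbp3. The GAS motif was searched on both strands as TTCNNNGAA. It was found 2 times in Gbp5 and 2 times in Gbp7, and 8.30% of all windows held it. The kappaB motif, the site of the NF-κB factors that LPS activates, had 1 match, in Gbp5, and was present in 4.51% of all windows. These matches describe letters in a window, and binding was not measured.

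**Figure D1:**
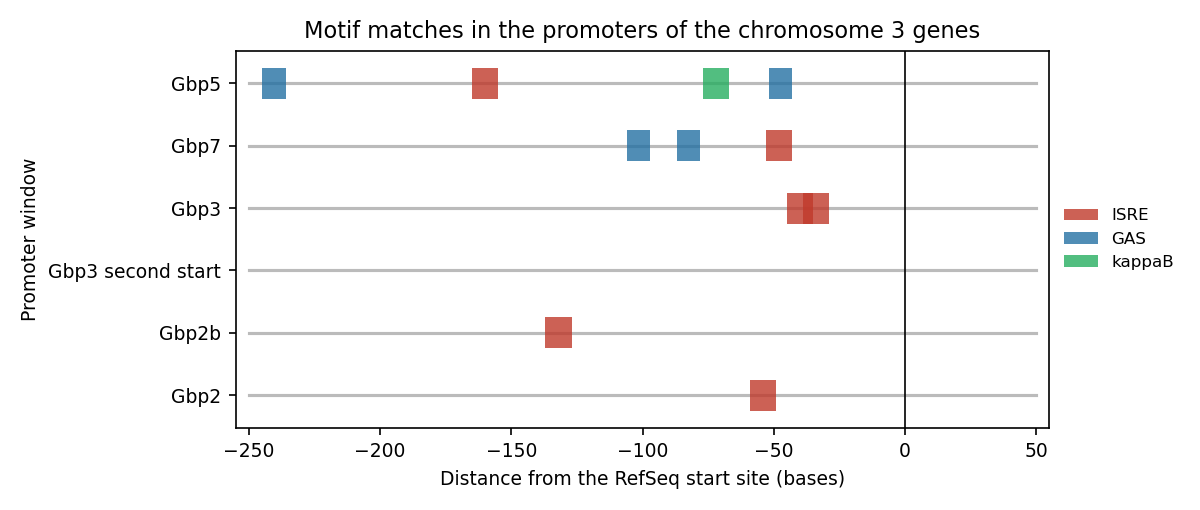
Motif matches in the 6 RefSeq promoter windows of the 5 chromosome 3 genes, by distance in bases from the start site (vertical line at 0). Boxes mark ISRE, GAS and kappaB matches on either strand, and 5 of the 6 windows hold an ISRE between 165 and 30 bases before the start.

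The ends of the coding sequences separate the genes in another way, and the last 21 bases before the stop codon are shown because they hold the CaaX box where there is one. A cysteine codon (TGC or TGT, in capitals) stood at the 4th codon from the end in Gbp2, Gbp2b and Gbp5. The other 6 genes had another codon there, and Gbp3 and Gbp9 are shown for comparison with that codon in capitals.
Gbp2: tctgggaagTGCactatactc
Gbp2b: cctcgatcaTGCaccatactt
Gbp5: catcatgacTGTgttataagc
Gbp3: ttcctcggcTCActaagtagt
Gbp9: aatccttcaCTTttaaggaaa

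The genes are near-copies of each other to different degrees, which bears on how reads can be assigned to them. Gbp5 (ENSMUSG00000105504.4, chr3:142493978-142522344), Gbp7 (ENSMUSG00000040253.15, chr3:142530342-142550149), Gbp3 (ENSMUSG00000028268.14, chr3:142560026-142573209), Gbp2b (ENSMUSG00000040264.10, chr3:142594847-142619179) and Gbp2 (ENSMUSG00000028270.12, chr3:142620602-142638008) lie on the plus strand of GRCm38. Gbp8 (ENSMUSG00000034438.16, chr5:105014150-105139540), Gbp9 (ENSMUSG00000029298.15, chr5:105077630-105139539), Gbp4 (ENSMUSG00000079363.7, chr5:105115767-105139586) and Gbp6 (ENSMUSG00000104713.4, chr5:105270702-105293698) lie on the minus strand. Gbp4, Gbp8 and Gbp9 overlap within the annotation and share 60 or 61 exonic bases. Coding identity over aligned bases was 82.5% between Gbp2 and Gbp2b, 78.3% between Gbp3 and Gbp7, and from 89.6% between Gbp4 and Gbp9 to 92.9% between Gbp4 and Gbp8 among the 4 genes of chromosome 5. Gbp6 and Gbp10, which is not among the 9, were 98.4% identical, with a longest identical run of 421 coding bases.

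**Figure D2:**
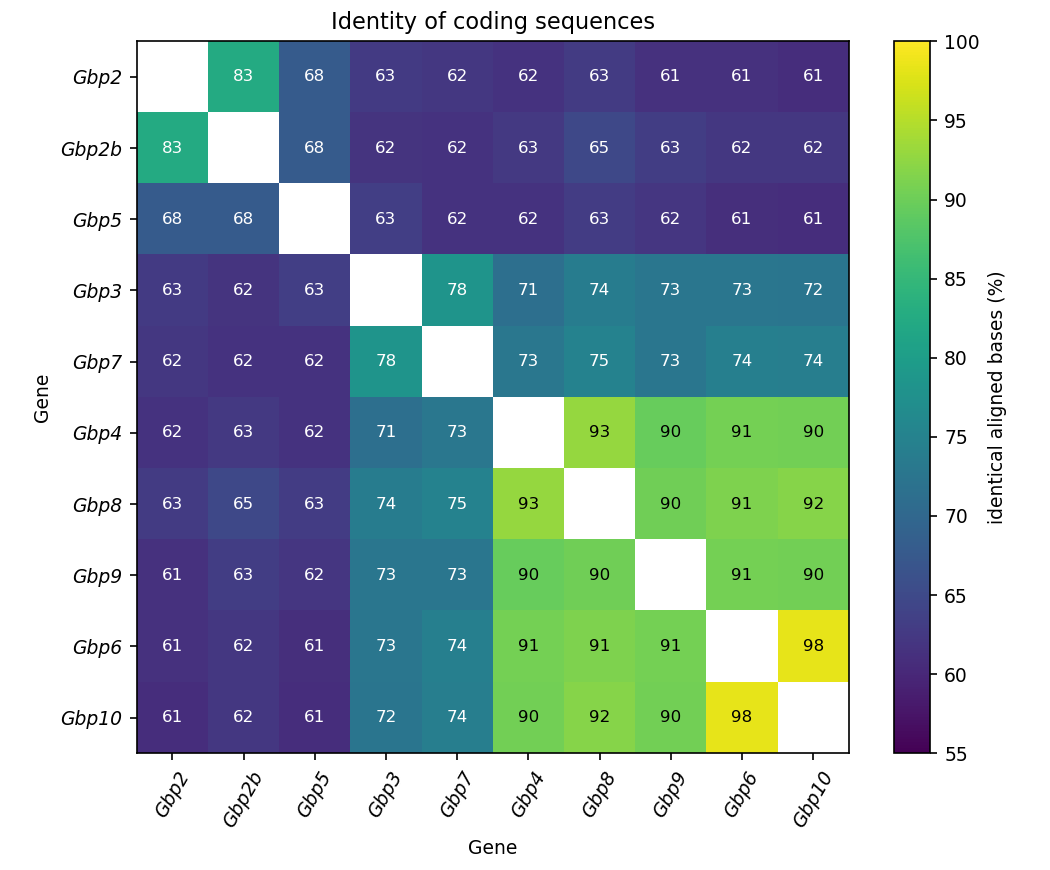
Percent of identical aligned bases between the coding sequences of the 9 genes and Gbp10, from light (high) to dark (low). The genes of chromosome 5 form a block near 90% or above, Gbp6 and Gbp10 reach 98.4%, and Gbp2 and Gbp2b stand at 82.5%.

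Reads were 2 × 100 bases, so 100-base words that occur in a gene and also in another one show where counts are uncertain. Their share was 0 for Gbp2 and Gbp2b, 0.142% for Gbp5, 0.694% for Gbp3, 1.64% for Gbp4, 1.65% for Gbp9, 4.39% for Gbp8 and 10.01% for Gbp7. It was 64.5% for Gbp6, whose words occurred mostly in the overlapping gene model Gm43302 (59.0%) and in Gbp10 (36.3%). The counts of Gbp6 and Gbp10 are therefore uncertain, and Gbp7 is affected in part, since 9.59% of its words occur in the overlapping model Gm43802. Both of those models had 0 counts in all 6 libraries, and whether reads from the shared bases were counted for any gene was not tested. The reads came from BALB/c cells and were mapped to the C57BL/6J reference, and the effect of strain differences within this family was not tested.

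One stretch of Gbp6 shows how close the copies are. Bases 896 to 995 of its coding sequence occur without a change in Gbp10.
Gbp6 and Gbp10: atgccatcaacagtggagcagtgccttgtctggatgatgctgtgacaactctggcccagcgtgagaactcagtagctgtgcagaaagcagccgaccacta

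The libraries held between 25359309 and 34898342 counts. All 7 macrophage markers, among them Adgre1 and Csf1r, were above 3 counts in every library, and their summed level ran from 21598 CPM (counts scaled to a common library size with TMM) in M2 control to 48227 CPM in M0 regorafenib. The states carried their own markers: Nos2 had 410649 and 221627 counts in the M1 libraries and at most 50 in the others, and Mrc1 had 24237 counts in M2 control and 12895 in M2 regorafenib. Of markers of T, B and NK cells, Cd3e, Cd3d, Cd8a, Ms4a1, Ncr1 and Prf1 were at 0 in all 6 libraries. Of 5 neutrophil markers Ly6g was at 0 throughout and Mpo had 2064 to 5124 counts, while S100a8 moved with the states, with 1804 and 489 counts in the M1 libraries, 123 and 91 in those of M0 and 68 and 39 in those of M2 (control, then regorafenib). The part of such cells in the values below was not tested.

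In M1 the family held a far larger share of the counts than in M0 or M2. The 9 genes together held 0.502% of all counts in M1 control (95% exact binomial interval 0.499 to 0.504%) and 0.541% in M1 regorafenib (0.538 to 0.544%). In M0 they held 0.0115% in control and 0.00689% in regorafenib, and in M2 they held 0.00273% in control and 0.00442% in regorafenib. Their summed level was 6115 and 6406 CPM in M1, 103 and 61.3 CPM in M0, and 26.1 and 40.1 CPM in M2, for control and regorafenib in each case. These intervals and those below cover counting error only. In bulk RNA, more cells of a kind and more RNA per cell cannot be told apart.

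The 5 genes of chromosome 3 carried most of it. They held 84.2% and 82.3% of the family's counts in the M1 libraries, 69.6% and 76.1% in M0, and 74.6% and 84.1% in M2, for control and regorafenib. The 4 genes of chromosome 5 held 15.8% and 17.7% in M1, where Gbp4 led them.

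Counts of each gene are given in the order M0 control, M0 regorafenib, M1 control, M1 regorafenib, M2 control and M2 regorafenib. Gbp2 had 749, 575, 31773, 27374, 310 and 432 counts. Gbp2b, which encodes the mouse protein GBP1, had 481, 358, 28533, 24631, 212 and 273 counts. Gbp5, a promoter of inflammasome assembly, had 115, 73, 31717, 33984, 24 and 36 counts. The 3 genes with a CaaX box thus had between 24631 and 33984 counts in the M1 libraries and between 24 and 749 in the other ones.

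Gbp3 had 377, 175, 26841, 27734, 56 and 81 counts. Gbp7 had 480, 357, 14120, 13409, 110 and 121 counts. Both were lower in M2 than in M0 in either arm, and for both the lowest M1 count was far above every other count.

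On chromosome 5, Gbp4 had 35, 27, 15210, 18008, 2 and 8 counts. Gbp9 had 911, 443, 8421, 8015, 239 and 166 counts. Gbp9 thus had the most counts of the family in M0 control, while Gbp4 was scarce outside M1.

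Gbp6 had 12, 4, 1272, 1078, 0 and 1 counts. Gbp8 had 4, 9, 117, 156, 1 and 3 counts. These 2 were the least abundant genes of the family in the M1 libraries, and outside M1 4 of their 8 values were at or under 3 counts, the floor at which a fold is read only as a bound or with its interval.

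**Figure D3:**
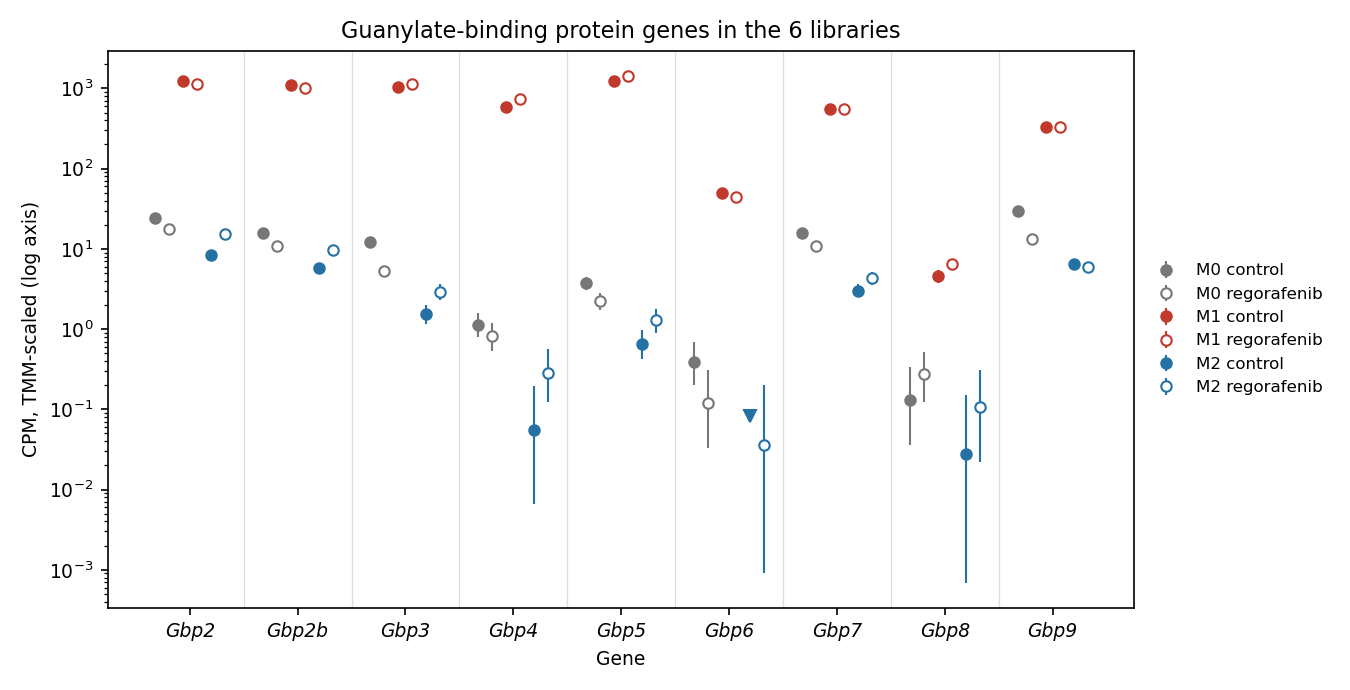
Level of each gene in CPM (scaled with TMM, log axis) in the 6 libraries, 1 library per point, with filled points for control and open points for regorafenib. Bars are 95% counting intervals, the triangle marks Gbp6 in M2 control, which had 0 counts, at the level of 3 counts, and the M1 points lie above the M0 and M2 points for all 9 genes.

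Levels can be compared between genes only per length, here as CPM per kilobase of exon. In M1 control Gbp2 was highest at 489 CPM per kilobase, followed by Gbp2b at 391, Gbp3 at 318, Gbp5 at 185, Gbp7 at 97.3, Gbp4 at 78.6, Gbp9 at 63.0, Gbp6 at 8.27 and Gbp8 at 1.32. No 2 neighbours in that order overlapped in their counting intervals. These intervals leave out the uncertainty from words shared with other genes, which is largest for Gbp6 (64.5%). With the longest transcript as length, Gbp4 and Gbp7 changed places. In M1 regorafenib the order had Gbp2 first at 451 CPM per kilobase and Gbp8 last at 1.88, and the only neighbours that overlapped were Gbp4 at 99.7 and Gbp7 at 99.1. Gbp2b was in the second place there at 362, ahead of Gbp3 at 352 and Gbp5 at 212. With the longest transcript as length, Gbp3 at 429 and Gbp5 at 375 CPM per kilobase both stood ahead of Gbp2b in M1 regorafenib, and Gbp2b went from rank 2 to rank 4.

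The order outside M1 was another one. In M0 control Gbp2 led at 9.69 CPM per kilobase, and Gbp9 at 5.73 and Gbp2b at 5.55 came next with overlapping intervals. Gbp5, the fourth in M1, was sixth there at 0.564 CPM per kilobase. In M2 control Gbp2 led at 3.37 CPM per kilobase, before Gbp2b at 2.06 and Gbp9 at 1.27.

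The comparison of M1 with M0 asks what IFN-γ and LPS did to the family. All 9 genes were higher in M1, in control and in regorafenib alike, by 10.99-fold (Gbp9) to 517-fold (Gbp4) in control and by 23.7-fold (Gbp8) to 912-fold (Gbp4) in regorafenib. The median log2 ratio of the 9 genes was 6.14 in control and 6.56 in regorafenib, where the median of all genes with at least 10 counts in either library was −0.05 and −0.09. With 1 library on each side there is no test of a pair, and a gene counts as past the fold where it differs by at least 2-fold with at least 10 counts in 1 of the 2 libraries. All 9 genes were past the fold in control, where 17.4% of 14168 genes were, and all 9 in regorafenib, where 16.3% of 14159 genes were. The 2 comparisons share no library.

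The genes differed in how far they rose. Gbp4 was highest, with a log2 ratio of 9.01 (95% interval 8.54 to 9.54) in control and 9.83 (9.29 to 10.4) in regorafenib. Gbp5 followed with 8.36 (8.09 to 8.63) and 9.31 (8.98 to 9.67). The intervals of Gbp4 and Gbp5 overlapped in both arms, and Gbp4 had only 35 and 27 counts in M0, so their order is not settled. Among all genes, Gbp4 stood at place 52 in control and 38 in regorafenib by this ratio, and Gbp5 at places 81 and 49.

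Gbp6 had log2 ratios of 6.98 (6.17 to 7.93) in control and 8.53 (7.17 to 10.4) in regorafenib. Gbp3 had 6.40 (6.26 to 6.55) and 7.76 (7.55 to 7.98). Gbp2b had 6.14 (6.01 to 6.27) and 6.56 (6.41 to 6.71), and Gbp2 had 5.66 (5.55 to 5.76) and 6.02 (5.91 to 6.15).

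Gbp7 had log2 ratios of 5.13 (4.997 to 5.26) in control and 5.68 (5.53 to 5.84) in regorafenib. Gbp8 had 5.12 (3.73 to 7.02) and 4.57 (3.61 to 5.72). Gbp9 had 3.46 (3.36 to 3.56) and 4.63 (4.49 to 4.77), so it was lowest in control, from the highest count in M0. The intervals of control and regorafenib did not overlap for Gbp2, Gbp2b, Gbp3, Gbp5, Gbp7 and Gbp9, each with the larger ratio in regorafenib, as was so for 26.1% of 13675 genes. Scaling to total counts lowers the log2 ratios by 0.44 in control and by 0.41 in regorafenib for every gene, and leaves all 9 past the fold.

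A change common to both arms can be tested with both arms in 1 fit. In an edgeR quasi-likelihood fit with state and drug as additive terms, the 2 arms stand in for replicates of a state. Its p-values measure only the spread between these 6 libraries, for which separate cultures are not stated, and that spread includes any difference in the response to the drug. All 9 genes rose in M1 against M0, with fitted log2 changes from 4.07 (Gbp9) to 9.45 (Gbp4) and adjusted p from 0.000303 to 0.0011, where 18.5% of 14110 genes were higher. All 9 also passed with DESeq2, where 15.7% of 16324 genes were higher.

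**Figure D4:**
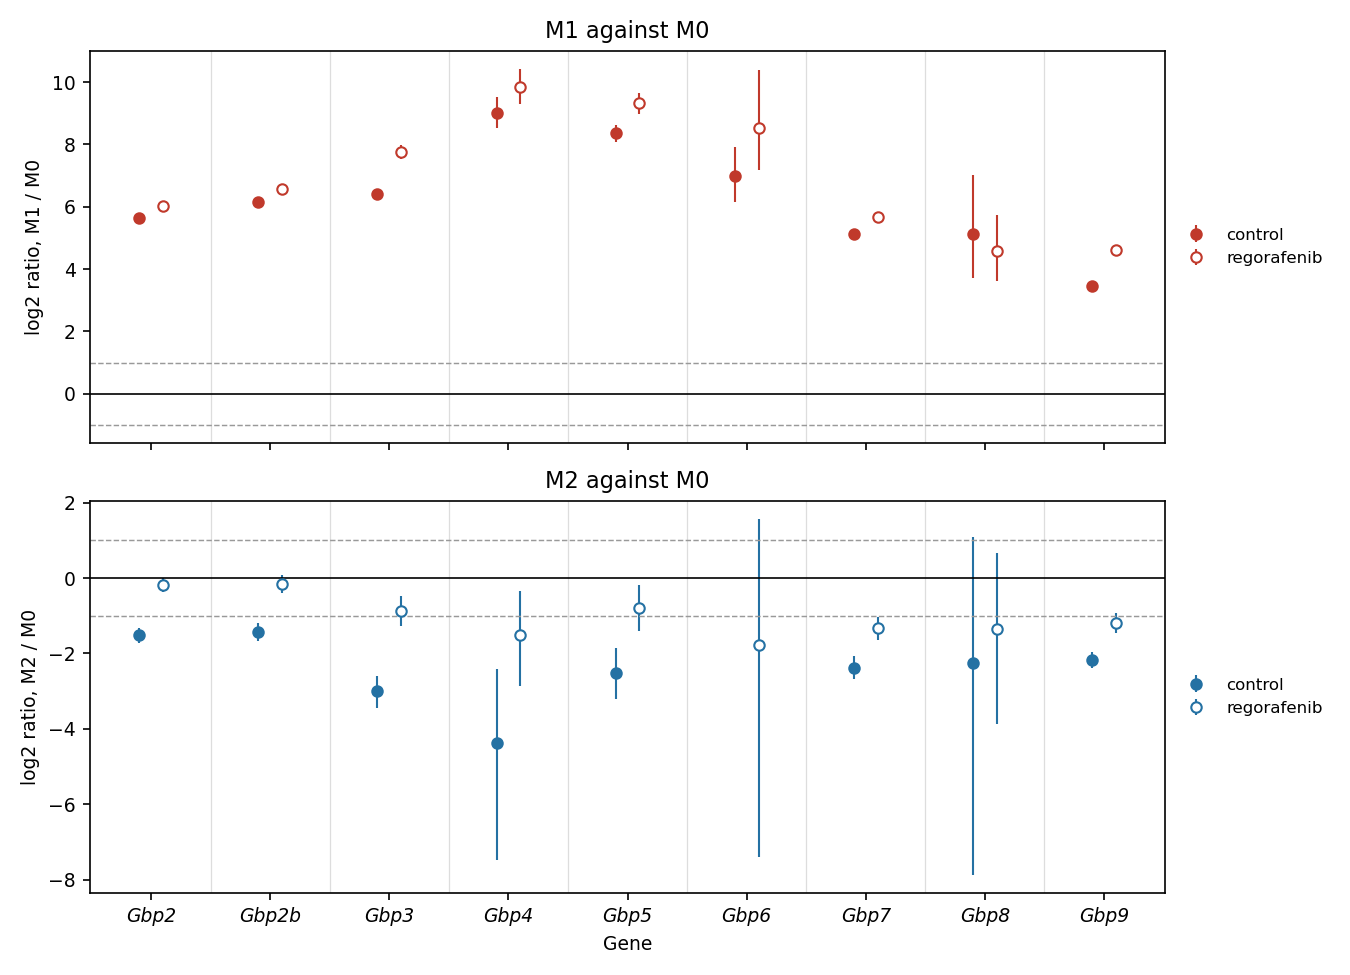
Log2 ratio of M1 to M0 (top) and of M2 to M0 (bottom) for each gene, with filled points for control, open points for regorafenib, 95% counting intervals as bars and dashed lines at 2-fold. All 9 genes lie above 3 in the top panel, and Gbp6 in M2 control is left out of the bottom panel since it had 0 counts.

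The comparison of M2 with M0 asks the same of IL4. In control, 8 of the 9 genes were lower in M2 past the fold, where 7.61% of 13830 genes were, and 8 counting intervals lay below 0, as did 28.8% of those of all these genes. The median log2 ratio was −2.44 over the 8 genes with at least 10 counts, against 0.01 for all genes. In regorafenib 3 genes were lower past the fold (Gbp4, Gbp7 and Gbp9), where 5.18% of 13841 genes were, and 5 intervals lay below 0, as did 28.4% of all. The median there was −0.87 over 7 genes, against −0.03 for all genes. In each arm this comparison shares the M0 library with that of M1.

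In control, Gbp3 was 8.001-fold lower in M2 (log2 ratio −3.00, 95% interval −3.43 to −2.59) and Gbp5 was 5.70-fold lower (−2.51, −3.21 to −1.87). Gbp7 had a log2 ratio of −2.37 (−2.69 to −2.07) and Gbp9 one of −2.18 (−2.39 to −1.97). Gbp2 had −1.52 (−1.72 to −1.33) and Gbp2b had −1.43 (−1.67 to −1.20). Gbp4 had 35 counts in M0 and 2 in M2, a log2 ratio of −4.38 with an interval of −7.48 to −2.42. Gbp6 had 12 and 0 counts and was at least 4.75-fold lower, taking 3 counts as the floor of the M2 library. Gbp8 had 4 and 1 counts, with an interval from −7.87 to 1.09 that includes 0.

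In regorafenib, Gbp7 had a log2 ratio of −1.32 (−1.63 to −1.02), Gbp9 one of −1.18 (−1.45 to −0.92) and Gbp4, with 27 and 8 counts, one of −1.52 (−2.87 to −0.34). Gbp3 had −0.87 (−1.27 to −0.49) and Gbp5 had −0.78 (−1.40 to −0.19), both short of 2-fold. The intervals of Gbp2 at −0.18 (−0.36 to 0.01) and Gbp2b at −0.15 (−0.39 to 0.08) included 0. Gbp6 had 4 and 1 counts and Gbp8 had 9 and 3, and both intervals included 0.

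In the additive fit over both arms, 0 of the 9 genes passed in M2 against M0 by edgeR, where 0.0142% of the 14110 genes (2 genes) were lower. Their adjusted p ran from 0.0846 (Gbp7, fitted log2 change −1.85) to 0.565 (Gbp2b, −0.77), and all 9 fitted changes were below 0. At an unadjusted p under 0.05, 6 of the 9 were lower, where 4.73% of all genes were. DESeq2 called 5 of the 9 lower (Gbp3, Gbp4, Gbp5, Gbp7 and Gbp9), where 1.22% of 13604 genes were. Without the M0 regorafenib library edgeR called 5 lower, where 1.17% of 14592 genes were, and without the M2 regorafenib library it called 3, where 0.149% of 14732 genes were.

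The third question was what regorafenib did to these genes within each state. In M0, 3 genes were lower with regorafenib past the fold (Gbp3, Gbp6 and Gbp9), where 10.9% of 13964 genes were. Of the 9 counting intervals 6 lay below 0, as did 35.9% of those of all these genes. Of these, Gbp3 went from 377 to 175 counts, with a log2 ratio of −1.21 (95% interval −1.48 to −0.95). Gbp9 had −1.14 (−1.31 to −0.98), and Gbp5 had −0.76 (−1.20 to −0.32). Gbp2 at −0.48 (−0.64 to −0.32), Gbp2b at −0.53 (−0.73 to −0.33) and Gbp7 at −0.53 (−0.73 to −0.33) lay close together. Gbp4 at −0.48 (−1.26 to 0.29), Gbp6 with 12 and 4 counts (−1.69, −3.78 to 0.04) and Gbp8 with 4 and 9 counts (1.07, −0.77 to 3.22) had intervals that included 0.

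In M1, where the family is abundant, 0 genes were past 2-fold with regorafenib in either direction, where 5.22% of 13440 genes were. Gbp8 at 0.52 (0.16 to 0.87) and Gbp4 at 0.34 (0.31 to 0.38) had the highest log2 ratios, before Gbp5 at 0.20 (0.18 to 0.22) and Gbp3 at 0.15 (0.12 to 0.17). Gbp2 and Gbp2b were each at −0.11 (−0.14 to −0.09) and Gbp6 was at −0.14 (−0.26 to −0.02). Gbp7 and Gbp9 were each at 0.03, with intervals of −0.01 to 0.06 and −0.02 to 0.07. At this depth the counting interval is narrow, and the spread between cultures, which 1 library per condition cannot show, is not in it.

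In M2, 0 genes were higher with regorafenib past the fold, where 6.15% of 13813 genes were. The log2 ratio was 0.86 (0.65 to 1.08) for Gbp2, 0.75 (0.48 to 1.01) for Gbp2b, 0.92 (0.41 to 1.43) for Gbp3, 0.97 (0.18 to 1.78) for Gbp5 and 0.52 (0.14 to 0.91) for Gbp7. These 5 intervals lay above 0, as did 28% of those of all these genes, and their values were short of 2-fold. The same 5 genes had an interval below 0 in M0, and 2.33% of 13446 genes were below 0 in M0 and above it in M2. For Gbp3 and Gbp5 the interval was below 0 in M0 and above it in M1 (8.75% of 12752 genes), and for Gbp2 and Gbp2b it was below 0 in M1 and above it in M2 (8% of 12656 genes). Gbp9 differed from them, with −0.14 (−0.44 to 0.15). Gbp4 had 2 and 8 counts (2.38, 0.06 to 5.66), and Gbp6 and Gbp8 were at or under 3 counts in both M2 libraries.

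Markers of the IL4 state moved in the same pair of M2 libraries. Arg1 had 21798 counts in control and 1017 in regorafenib, a log2 ratio of −4.04. Mrc1 and Mgl2 also had fewer counts in regorafenib, and Retnla, Chil3 and Ccl24 had more. For control and regorafenib in M2, the macrophage markers summed to 21598 and 33338 CPM, the neutrophil markers to 88.8 and 132 CPM, the fibroblast markers to 3.48 and 5.61 CPM and the endothelial markers to 26.4 and 10.01 CPM. In M0 the macrophage markers summed to 29887 and 48227 CPM, the neutrophil markers to 84.8 and 158 CPM, the fibroblast markers to 3.06 and 9.92 CPM and the endothelial markers to 38.0 and 18.0 CPM. Lyz2 made up most of these macrophage sums, Mpo of the neutrophil sums and Kdr of the endothelial sums. The median log2 ratio of the macrophage markers was 0.55 in M0 and 0.13 in M2. Fcgr1 (−1.48 in M0, −1.25 in M2), Itgam and S100a8 were lower with regorafenib in both pairs. Adgre1, Csf1r, Lyz2, Mertk and Mpo were higher in both, and Cd68 hardly moved (−0.01 and −0.07). The dendritic cell markers summed to 0.466 CPM in M2 control and 2.18 CPM in M2 regorafenib, against 0.456 and 0.182 CPM for the M0 pair. They reached 1.86 CPM in M1 control and 4.52 CPM in M1 regorafenib, where Xcr1 had 36 and 102 counts, against at most 1 in the other libraries. Markers of the IFN-γ and LPS state (Nos2, Il12b, Cxcl9, Cxcl10 and Cd40) summed to 9.89 and 4.33 CPM for control and regorafenib of the M2 pair and to 18.6 and 3.79 CPM for the M0 pair. In the M1 pair they did not move together: Nos2, which makes up most of the sum there, had a log2 ratio of regorafenib to control of −0.79, while Cd40 had 0.90, Cxcl10 0.40 and Cxcl9 0.19. Il12b was higher there too, with 10147 counts in control and 26829 in regorafenib. The part of any of these markers in the ratios above was not tested. The M0 libraries also enter the M1 and M2 ratios above, so a lower M0 regorafenib value raises each of the ratios taken in that arm.

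A change with regorafenib common to the 3 states was not found. In the additive fit 0 of the 9 genes passed by edgeR, where 0% of the 14110 genes did, and 0 of the 9 had an unadjusted p under 0.05, where 11.6% of all genes did. Fitted log2 changes ran from −0.40 (Gbp9) to 0.77 (Gbp8), with adjusted p from 0.448 to 0.993. DESeq2 called 0 of the 9 as well, and 296 genes in all (2.25% of 13150).

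**Figure D5:**
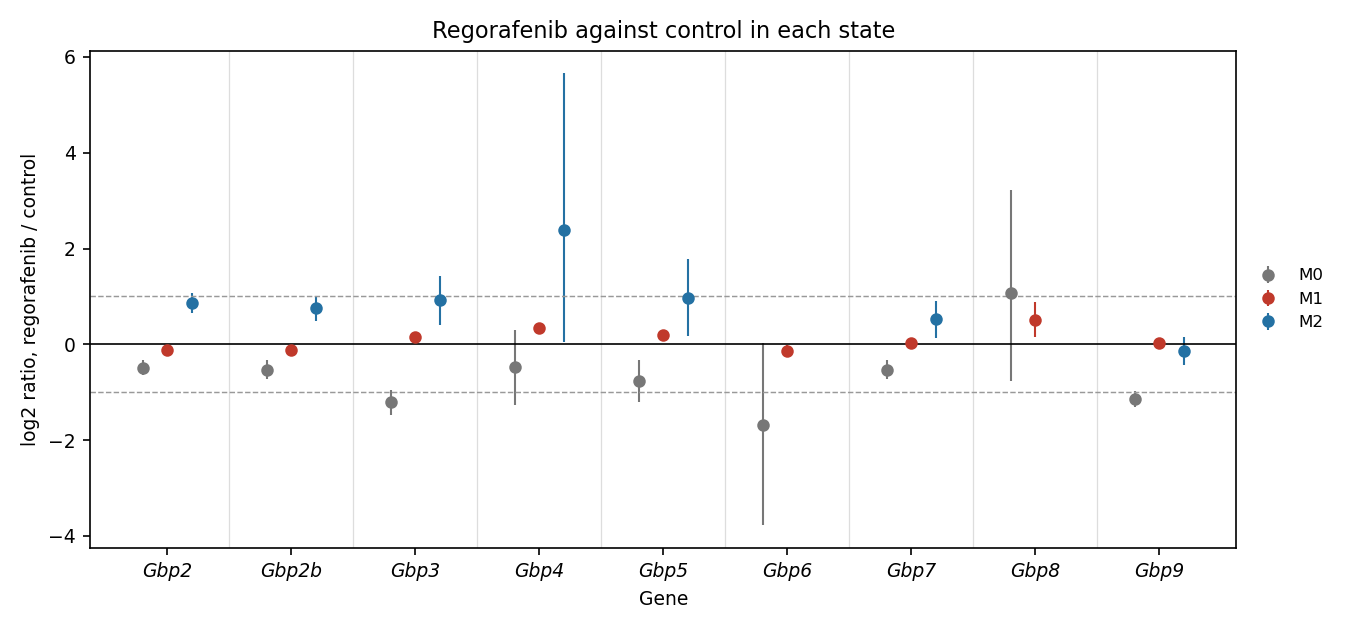
Log2 ratio of regorafenib to control for each gene in M0, M1 and M2, with 95% counting intervals as bars and dashed lines at 2-fold. For Gbp2, Gbp2b, Gbp3, Gbp5 and Gbp7 the M0 points lie below 0 and the M2 points above it, and Gbp6 and Gbp8 have no M2 point since both M2 libraries were at or under 3 counts.

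The genes around the family were read from lists. Of 12 genes of the IFN-γ receptor and its signalling, 8 rose in M1 in the additive edgeR fit, where 18.5% of all genes did. Jak2, a kinase at the receptor, had a fitted log2 change of 4.40 (adjusted p = 0.000303) and Irf1 one of 3.78 (0.00271). Jak1, the other kinase named above, had 0.40 (0.167) and did not pass. Socs1, the feedback inhibitor of the pathway, had 7.51 (0.000473) and Batf2 had 4.43 (0.000343). Ifngr1, the ligand-binding chain of the receptor, had −1.08 (0.0507) and did not pass. DESeq2 called 8 of the 12 higher and 1 lower, where 2561 and 2571 of 16324 genes were.

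Irf1 had 1040, 1922, 15489, 12483, 1091 and 2605 counts over the 6 libraries in the order above. Its log2 ratio of regorafenib to control was 0.78 in M0, −0.21 in M1 and 1.64 in M2. It was thus higher with regorafenib in M0 and M2.

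Of the 11 immunity-related GTPases, which act with the guanylate-binding proteins at vacuoles, 11 rose in M1, where 18.5% of the 14110 genes did. Iigp1 had a fitted log2 change of 7.83 (adjusted p = 0.000225), Igtp one of 4.32 (0.00039) and Irgm1 one of 2.52 (0.00252). In M2 control 8 of the 8 with at least 10 counts were lower than in M0 past the fold (7.61% of all genes), with a median log2 ratio of −1.70, and in regorafenib 1 of 7 was (5.18% of all), with a median of −0.14. With regorafenib in M0, 4 of 8 were lower past the fold (10.9% of all), with a median of −1.11. In M1 1 of 11 was lower past the fold, where 5.22% of all genes were higher or lower, with a median of −0.39. In M2 1 of 6 was higher (6.15% of all), with a median of 0.34. In the additive fit, 0 of the 11 were lower in M2 by edgeR, with 5 at an unadjusted p under 0.05 (4.73% of all genes) and 1 by DESeq2 (1.22% of all). With regorafenib 0 of the 11 changed by edgeR, with 3 lower at an unadjusted p under 0.05, where 11.6% of all genes were higher or lower, and 0 by DESeq2 (2.25% of all). Iigp1 had 44, 19, 6153, 4386, 7 and 5 counts, and Igtp had 743, 428, 10488, 6997, 406 and 282.

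Of 10 tested genes around Toll-like receptor 4, 6 rose in M1 and 1 fell, where 18.5% of the 14110 genes were higher and 18.2% lower. Tlr4, the LPS receptor, was the one that fell, with −1.12 (adjusted p = 0.0055), while its co-receptor Cd14 had 2.59 (0.00301) and Irf7 had 4.02 (0.00258). Of 8 genes of caspase-11 and the inflammasome, 4 rose and 1 fell, against the same 18.5% and 18.2% of all genes. Il1b had 95, 98, 609592, 595706, 98 and 84 counts and a fitted log2 change of 13.0 (adjusted p = 0.000189). Nlrp3, the inflammasome sensor, had 3.61 (0.000604), Casp4, which encodes caspase-11, had 2.64 (0.00156) and Casp1 had 1.89 (0.000959). Pycard, the adaptor, was the one that fell, with −1.68 (0.0224).

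The lists also held genes that place or anchor the proteins. The median log2 ratio of M1 to M0 over the 5 enzymes of the CaaX lipid anchor was −0.01 in control and −0.08 in regorafenib. Of 10 autophagy genes 1 rose and 1 fell, where 18.5% of all genes were higher and 18.2% lower. Sqstm1, an autophagy receptor, rose with a fitted log2 change of 1.03 (adjusted p = 0.0338) and Atg7 fell with −1.26 (0.00429).

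The rest of the family was read beside the 9. Gbp10 had 9, 6, 1272, 1071, 4 and 1 counts, which is close to those of Gbp6, its near-copy. Gbp11 had 1, 2, 168, 251, 0 and 6 counts. Both were higher in M1 than in M0, at log2 ratios of 7.39 (6.46 to 8.52) for Gbp10 and 7.64 (5.14 to 13.0) for Gbp11 in control. Gbp2-ps, a pseudogene on chromosome 3, had 0 counts in all 6 libraries.

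The genes most like the family were taken from the 11297 genes that reached 100 counts in some library, by the root mean square distance of the centred log2(CPM + 1) profile over the 6 libraries from the mean profile of the 9. The nearest was Hcar2, a receptor for hydroxybutyrate, at a distance of 0.159 and with 120, 71, 5783, 5855, 23 and 22 counts. Ms4a4c followed at 0.303, Egln3, a prolyl hydroxylase of the hypoxia pathway, at 0.356, Tgtp2 at 0.367, and Clec4e, the lectin Mincle, at 0.377. Slfn1 (0.416), Iigp1 (0.419), Gm4951 (0.431), Mir155hg, the host gene of miR-155 (0.439), and Gipr (0.473) completed the 10. Tgtp2, Iigp1 and Gm4951 are immunity-related GTPases of the list above. Within the family, Gbp2 at 0.166 and Gbp2b at 0.190 lay nearest to the mean profile, and Gbp8 at 1.84 and Gbp5 at 1.22 lay farthest from it. Gbp8 was under 1 CPM outside M1 and at 4.53 and 6.47 CPM in M1, so the added 1 CPM weighs on its distance. With only 6 libraries, 2 of which set the M1 level, these distances describe the profiles and no test was made.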

How the data were processed

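The authors sequenced TruSeq Stranded mRNA libraries and deposited raw read counts per gene, made after trimming (cutadapt 2.4) with STAR 2.7.2a on GRCm38 and Gencode M19. The strand column taken is not given in the sources used here. Of 54446 identifiers, 53229 matched Gencode M21 with and 1180 without their version, and 37 stayed unnamed. TMM factors from edgeR 4.0.16 under R 4.3.3 scaled the counts (0.820 to 1.12). Pairs of libraries were compared by log2 ratio, with 0 replaced by 0.5 and an exact conditional binomial 95% interval. The additive fit used edgeR's quasi-likelihood test after filterByExpr, with Benjamini-Hochberg adjustment over all genes and a threshold of 0.05. It was tested on simulated data, and DESeq2 1.42.0 was the alternative tool. Exon lengths, shared 100-base words and coding identity came from Gencode M21, promoters from RefSeq. The authors' analysis used NOISeq with simulated replicates, which was not repeated here. Named genes were the 9 genes, other Gbp genes, up to 6 of a list and the 10 nearest profiles. Of 12 listed immunity-related GTPase names, 2 are the same gene, so 11 were counted. The genes and lists were chosen with earlier results of these data known.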

Additional observations from a re-analysis of the deposited data

Results flagged for a closer look

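For 5 genes the ratio of regorafenib to control had opposite signs in a pair of states, with both counting intervals off 0. Each state holds 1 library per arm, so the difference was not tested. Between M2 and M0 the log2 ratios differed by 2.13 for Gbp3, by 1.73 for Gbp5, by 1.35 for Gbp2, by 1.28 for Gbp2b and by 1.05 for Gbp7, each lower with regorafenib in M0 and higher in M2, a pattern that 2.33% of 13446 genes showed. Between M1 and M0 they differed by 1.36 for Gbp3 and by 0.96 for Gbp5, which were lower with regorafenib in M0 and higher in M1 (8.75% of 12752 genes). Between M2 and M1 they differed by 0.98 for Gbp2 and by 0.86 for Gbp2b, which were lower with regorafenib in M1 and higher in M2 (8% of 12656 genes).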

How the results depend on the processing

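None of the log2 ratios of the 9 genes between pairs of libraries changed sign under another scaling or with 1 CPM added. Their size did change: adding 1 CPM makes the M1 to M0 ratios of Gbp6 and Gbp8 smaller, because both were under 1 CPM in M0. In the additive fit the regorafenib term changed sign for 5 genes with 1 library left out, none with an adjusted p under 0.05: it ran from −0.29 to 0.37 for Gbp2, from −0.31 to 0.31 for Gbp2b, from −0.50 to 0.48 for Gbp3, from −0.23 to 0.48 for Gbp5 and from −0.24 to 0.26 for Gbp7. Replicates could not be paired, because each condition has 1 library and there is no replicate number to block on. The additive fit sets regorafenib against control within the states through its state term. Scaling to total counts moved the median log2 ratio of M1 to M0 to 5.70 in control and 6.14 in regorafenib, and put 1 of the 9 genes past the fold for regorafenib in M2. With a 4-fold limit, 0 of the 9 genes were lower in M2 against M0 in regorafenib and 0 with regorafenib in M0. Without a filter on low counts, 5 were lower in M2 against M0 in regorafenib and 3 higher with regorafenib in M2. Genes of the whole table past the fold, at 4-fold and without the filter, numbered 1284 and 5522 for M1 against M0 in control (2465 at 2-fold with the filter), 1180 and 4874 in regorafenib (2311), 193 and 3541 for M2 against M0 in control (1052), 154 and 1971 in regorafenib (717), 418 and 4087 for M0 with against without the drug (1529), 125 and 4139 for M1 (701), and 186 and 3254 for M2 (850). In the additive fit, genes lower in M2 numbered 2 by edgeR, 165 without the filter and 166 by DESeq2, with 5 of the 9 genes under either alternative, and leaving out 1 library gave 0 to 5 of the 9 and 16 (without M2 control) to 171 genes (without M0 regorafenib) in all. Genes changed by regorafenib numbered 0 by edgeR, 333 without the filter and 296 by DESeq2, with 0 of the 9, and 0 to 814 with 1 library left out, the highest without M1 regorafenib and 726 without M1 control. The cause was not tested. All 9 genes stayed past the threshold in M1 against M0 with any 1 library left out. Under Pearson's r in place of the distance, 2 of the 10 most similar genes were shared. With words of 50 bases, 18.1% of those of Gbp8 occurred in other genes. Outside M1, counts of Gbp4, Gbp6 and Gbp8 limit what can be read, and no ratio has a replicate check.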
